A study of Mus musculus with 4 samples.

Results

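Serine-threonine protein phosphatase subunit genes were taken from a list of NAT10 binding peaks in mouse 32D cells, and 15 of them had a listed peak, out of 1629 gene identifiers in the whole list. Members were all genes whose symbol starts with Ppp and a digit, and they were sorted by name into PP1, PP2A, PP2B (calcineurin), PP4, PP5 and PP6, and into catalytic, scaffold and regulatory subunits. Such a symbol is carried by 78 entries of the RefSeq gene table. Of these 77 are protein-coding and 1, Ppp2r2cos, is a long non-coding RNA that was set aside, so 62 protein-coding members had no listed peak. The members' peaks came to 35 of 4172 distinct peaks, and no member peak was also listed under another gene.

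The binding data come from eCLIP, in which UV light crosslinks a protein to the RNA it touches and the RNA pulled down with an antibody is sequenced. The 2 NAT10 immunoprecipitates and the 2 input libraries without antibody all came from wild-type 32D cells, an established interleukin-3-dependent line that the labels place in mouse bone marrow, grown with 10 ng/mL interleukin-3 and crosslinked at 254 nm. The stated purpose of the series was to find the mRNA sites that NAT10, the enzyme that writes N4-acetylcytidine on RNA, binds directly. The authors deposited 1 list for all 4 libraries, with a log2 fold of immunoprecipitate over input and a -log10 p for each peak, so no spread between replicates can be given and no test between libraries was possible. Of 8 genes typical of the myeloid line Ptprc, Csf2rb, Gata2 and Srgn were listed and Il3ra, Kit, Mpo and Cd34 were not. None of 5 genes typical of other cells was listed, but only 7.33% of all protein-coding genes had a listed peak. These few genes therefore cannot tell cell types apart, and a listed peak is a call of binding, not of expression. Absence from the list does not show absence of binding, because no listed peak is below 3.00 in log2 fold or below 3.07 in -log10 p.

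Serine-threonine phosphatases remove phosphate groups that kinases place on proteins. A small set of catalytic subunits does the chemistry, and a much larger set of regulatory subunits brings them to their substrates or holds them back. PP1 and PP2A are the general enzymes of most cells, calcineurin answers to calcium and calmodulin and is known in blood cells for activating the NFAT transcription factors, and PP4 and PP6 are relatives of PP2A with roles in DNA repair and cell division.

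Catalytic subunits made up a large part of the listed members. Of 77 protein-coding members 15 had a listed peak, which is 19.5% (exact 95% interval 11.3 to 30.1), while 7.33% of all protein-coding genes had one (8.56% with receptor and predicted genes left out). With a peak above the median log2 fold of the list asked for, 9 members were listed (11.7%), against 3.95% of all protein-coding genes. With 2 or more separate regions asked for, 8 members were listed (10.4%), against 3.41%. Of the 11 catalytic subunit genes 7 were listed (63.6%, exact 95% interval 30.8 to 89.1), namely Ppp1ca, Ppp1cb, Ppp2ca, Ppp3ca, Ppp3cb, Ppp4c and Ppp6c. Of the 63 regulatory genes 8 were listed (12.7%, exact 95% interval 5.65 to 23.5), and the interval for these genes includes the 7.33% of all protein-coding genes. These intervals cover counting error only, and the difference between the roles was not tested. All shares count every gene of a group, whether or not it is expressed in these cells. Expression was not examined here, so its part in the shares, between roles or against all protein-coding genes, was not tested. The 4 catalytic genes without a peak were Ppp1cc, Ppp2cb, Ppp3cc and Ppp5c. A further entry, Ppp1ccb, is named like Ppp1cc but was kept apart because its role is not given by its name; it had no peak either.

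**Figure D1:**
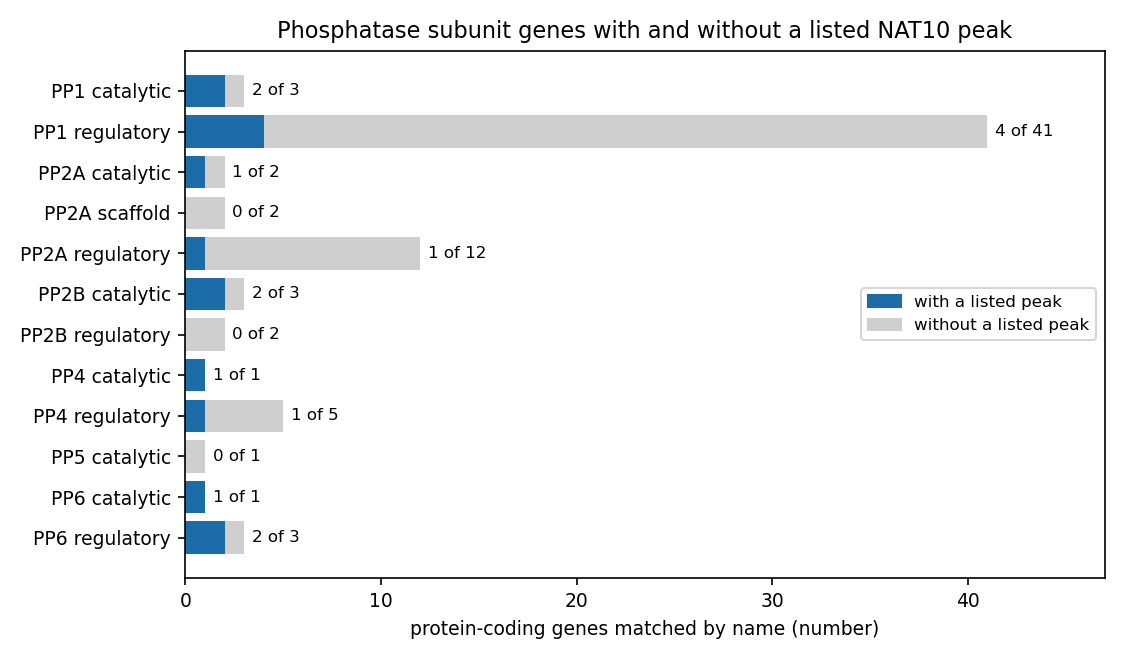
Number of protein-coding phosphatase subunit genes with a listed NAT10 peak (blue) and without one (grey), by phosphatase and role, with the count beside each bar; Ppp1ccb is left out. Listed genes were 2 of 3 PP1 catalytic genes and 4 of 41 PP1 regulatory genes, and PP6 had 3 of its 4 genes listed. Of all protein-coding genes 7.33% had a listed peak.

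By phosphatase, PP1 had 6 of 45 genes listed (13.3%, exact 95% interval 5.05 to 26.8) and PP2A had 2 of 16 (12.5%, 1.55 to 38.3). Both intervals include the 7.33% of all protein-coding genes. Calcineurin had 2 of 5, PP4 had 2 of 6, PP6 had 3 of 4 and PP5, a single gene, had none. Each of the phosphatases other than PP5 therefore had at least 1 catalytic gene in the list. The other groups are so small that their exact intervals run from 5.27 to 85.3% for calcineurin, from 4.33 to 77.7% for PP4 and from 19.4 to 99.4% for PP6. Listed members also lie in longer genes, with a median genomic span (introns included) of 44329 nt against 22018 nt for members without a peak. Other listed protein-coding genes had 29269 nt, against 17146 nt for all protein-coding genes. The gap was wide for regulatory genes, with 87583.5 nt for the 8 listed and 22036 nt for the 55 without a peak. For catalytic genes it was narrower, with 31981 nt for the 7 listed and 21791 nt for the 4 without a peak. The parts of gene length and of expression level in these counts were not tested.

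The strongest peaks of the family lay on the calcineurin gene Ppp3ca and the PP6 gene Ppp6c. Ppp3ca, which encodes the alpha isoform of the calcium-activated catalytic subunit, had 6 peaks. On the plus strand of chromosome 3 (GRCm39, as for all positions here) 3 of them touched each other and formed 1 stretch of 341 nt in the 3' UTR. From the 5' side these were 136641641 to 136641745 with a log2 fold of 6.48, 136641746 to 136641814 with 6.52 and 136641815 to 136641981 with 6.54. The 3 pieces differed by little, and their -log10 p values lay between 20.8 and 21.3. A log2 fold of 6.54 is 92.9-fold over input and was higher than the strongest peak of 91.9% of other listed genes, which put Ppp3ca at rank 132 of 1626 gene symbols. Upstream in the same 3' UTR were 2 weaker peaks, 136641008 to 136641040 (log2 fold 4.38) and 136641059 to 136641101 (4.50), separated from the strong stretch by 539 nt. The sixth peak lay in an exon at 136408498 to 136408596 with a log2 fold of 4.11, and 232411 nt of genome separate it from the 3' UTR peaks. So within 1 mRNA the log2 fold ranged over 2.42 units, with the high values packed into a single stretch.

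Ppp3cb, the beta isoform of the same subunit, had 2 weak peaks in its 3' UTR on the minus strand of chromosome 14. The peak at 20557990 to 20558077 had a log2 fold of 4.25, and the one at 20557860 to 20557953 had 4.19. They were 36 nt apart, and both lay below the median of all listed peaks, 4.60. Neither the third catalytic gene, Ppp3cc, nor the calcium-binding regulatory subunit genes Ppp3r1 and Ppp3r2 were listed.

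PP6 was listed for its catalytic subunit and for 2 of its 3 regulatory subunits. Ppp6c, the catalytic subunit, had a single peak on the minus strand of chromosome 2, at 39086472 to 39086599 in the 3' UTR, where the log2 fold was 6.50 with 21.1 for -log10 p. This is 90.4-fold over input, and the log2 fold is close to those of the Ppp3ca stretch. Ppp6r2, a regulatory partner of PP6, had a single exon peak at 89170728 to 89170773 on chromosome 15 with a log2 fold of 5.22, the highest of any regulatory member. Ppp6r3, its relative, had 2 peaks in the 3' UTR on chromosome 19, at 3506152 to 3506197 (log2 fold 4.23) and at 3504962 to 3505081 (4.18). These were 1070 nt apart. Ppp6r1 had no listed peak.

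**Figure D2:**
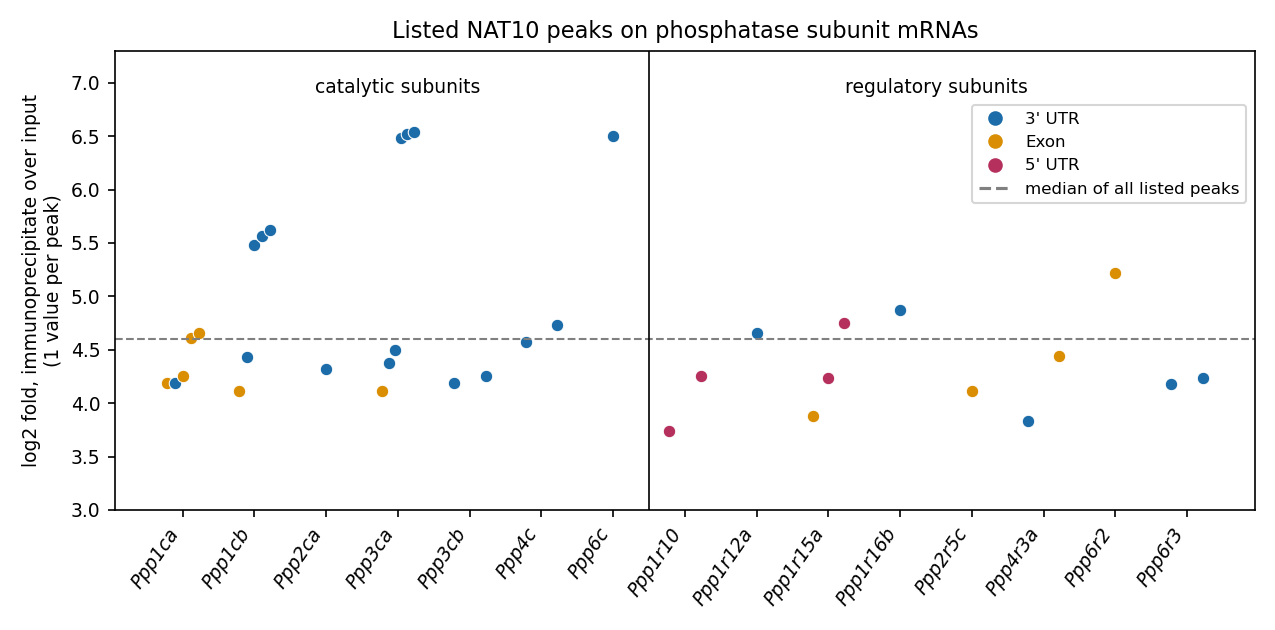
Log2 fold of immunoprecipitate over input (linear axis of log2 values) for each of the 35 member peaks, coloured by the authors' class, with catalytic subunits on the left and regulatory subunits on the right; the dashed line is the median of all listed peaks, 4.60. Only Ppp3ca and Ppp6c have peaks above 6, and all peaks in a 5' UTR belong to Ppp1r10 and Ppp1r15a.

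PP1 was listed for the alpha and beta catalytic subunits, with different layouts. Ppp1cb, the beta isoform that works in the myosin phosphatase, had 5 peaks on the plus strand of chromosome 5. In the 3' UTR the peaks at 32649308 to 32649445, 32649636 to 32649708 and 32649711 to 32649832 had log2 folds of 5.62, 5.56 and 5.48. Next to them the peak at 32649219 to 32649256 reached 4.43, and an exon peak at 32640754 to 32640809 reached 4.11. The 4 peaks of the 3' UTR thus lay within 614 nt, and 3 of them were about 1 log2 unit above the rest. Ppp1ca, the alpha isoform, had 5 separate short peaks on the plus strand of chromosome 19, and 4 of them lay in exons. These exon peaks were at 4243165 to 4243244 (log2 fold 4.61), 4243767 to 4243786 (4.19), 4244892 to 4244906 (4.26) and 4244980 to 4245031 (4.66). The last peak, at 4245153 to 4245197 in the 3' UTR, had 4.19. All 5 Ppp1ca values lay within 0.47 log2 units, spread over 2033 nt, so no stretch stood out. The coding sequences of PP1 catalytic isoforms are alike, and the sources used here do not say how reads that fit several genes were treated.

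**Figure D3:**
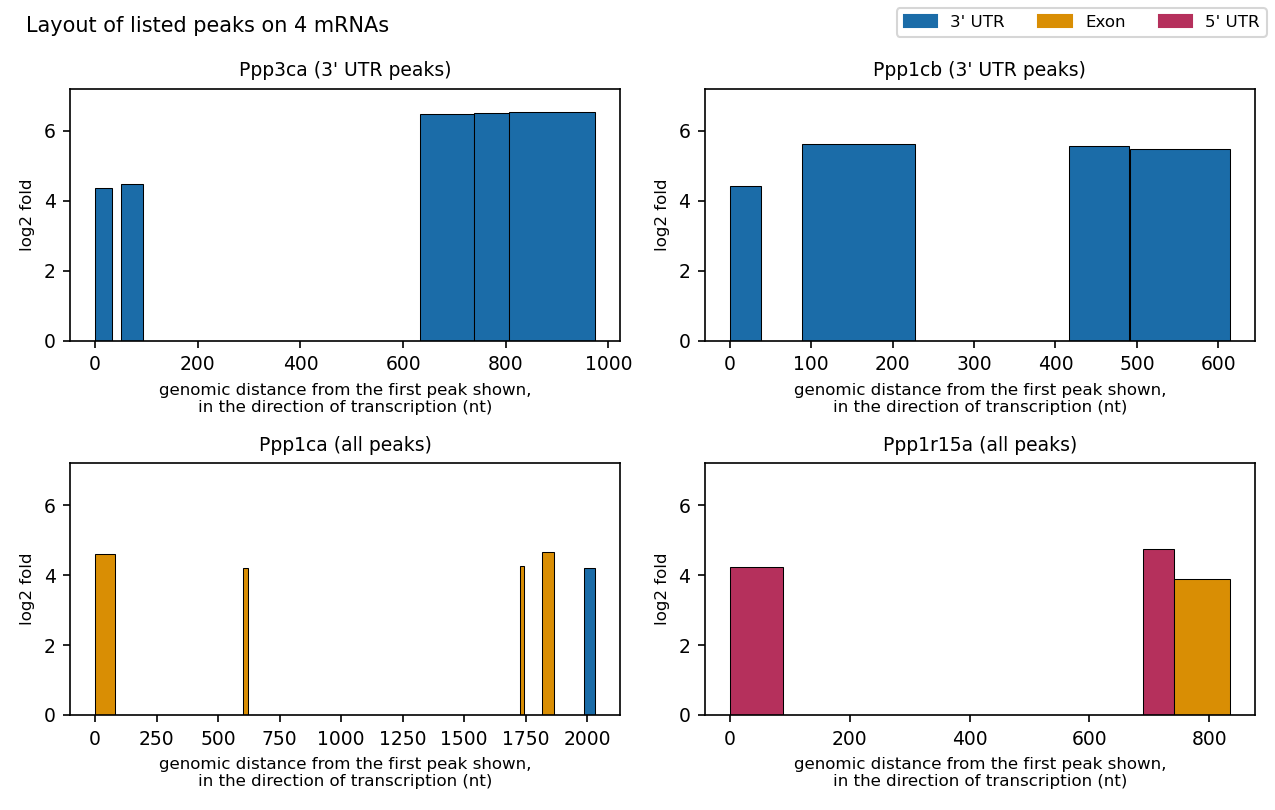
Listed peaks of the 4 members with 3 or more peaks, as bars whose width is the peak's extent (nt from the first peak shown, in the direction of transcription, introns included) and whose height is its log2 fold; the exon peaks of Ppp3ca and Ppp1cb lie farther upstream and are left out. The Ppp3ca and Ppp1cb 3' UTRs hold peaks of unlike height, while the 5 Ppp1ca peaks are nearly level.

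Of the 41 PP1 regulatory genes 4 were listed. Ppp1r15a encodes GADD34, which brings PP1 to the translation factor eIF2 alpha after stress, and its mRNA is known for upstream reading frames in the 5' UTR. It had 2 peaks in the 5' UTR on the minus strand of chromosome 7, at 45175419 to 45175506 (log2 fold 4.23) and 45174766 to 45174816 (4.75). An exon peak at 45174673 to 45174765 with a log2 fold of 3.88 touched the second of these. The listed signal of Ppp1r15a thus crossed from the 5' UTR class into the exon class. Positions along the mRNA were not read beyond these classes. Ppp1r15b, its constitutive relative, had no peak. Ppp1r10 encodes PNUTS, a nuclear partner of PP1 that acts in transcription termination. Both of its peaks were in the 5' UTR on chromosome 17, at 36228223 to 36228315 (3.74) and 36228526 to 36228606 (4.25).

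The other PP1 regulators with a peak belong to the myosin-phosphatase-targeting family. Ppp1r12a, the myosin-binding subunit that pairs with the product of Ppp1cb, had 1 peak at 108113633 to 108113727 on chromosome 10 with a log2 fold of 4.65. Ppp1r16b, a membrane-associated member of the same family, had 1 peak at 158604056 to 158604290 on chromosome 2 with 4.88. Both lay in the 3' UTR. None of the 7 glycogen-targeting Ppp1r3 genes and none of the 10 genes of the inhibitor families Ppp1r1, Ppp1r2, Ppp1r11 and Ppp1r14 was listed. Exact 95% intervals allow shares of up to 41.0% for the Ppp1r3 genes and 30.8% for the inhibitors, so at these sizes a share near 7.33% cannot be told from 0.

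PP2A, PP4 and their regulators were listed with few and mostly weak peaks. Ppp2ca, the alpha catalytic subunit of PP2A, had 1 peak in its 3' UTR at 52013191 to 52013294 on chromosome 11 with a log2 fold of 4.32. Ppp2r5c, a regulatory subunit of the B-prime family that selects substrates, had 1 exon peak at 110488982 to 110489123 on chromosome 12 with 4.11, the weakest of the members' strongest peaks. The scaffold genes Ppp2r1a and Ppp2r1b, on which the PP2A enzyme is assembled, had none. The other 11 regulatory genes of PP2A had none either, including all 4 of the B family (Ppp2r2) and all 3 of the Ppp2r3 family. Ppp4c, the catalytic subunit of PP4, had 2 touching peaks in its 3' UTR on the minus strand of chromosome 7, at 126385104 to 126385149 (4.73) and at 126385092 to 126385103 (4.57). Ppp4r3a, a substrate-binding partner of PP4, had an exon peak at 101014462 to 101014695 (4.44) and a 3' UTR peak at 101006172 to 101006293 (3.83) on chromosome 12. Ppp4r1, Ppp4r2, Ppp4r3b and Ppp4r4 had no peak.

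Set against the rest of the list, members lay near the middle in strength. Their strongest peaks had a median log2 fold of 4.66 (n = 15, range 4.11 to 6.54), and the 1611 other listed gene symbols had 4.69. The members' median was above 48.2% of the other genes. The 7 catalytic members ranged from 4.25 to 6.54 with a median of 4.73, and the 8 regulatory members from 4.11 to 5.22 with a median of 4.55, so the roles overlap. Per peak the members' median log2 fold was 4.43, against 4.60 for all other peaks, and the median -log10 p was 4.50 against 5.68. The member peaks just around the median of the whole list were 1 of Ppp1ca at 4.61 and 1 of Ppp4c at 4.57. The strongest peaks of these genes, at 4.66 and 4.73, both lay above it. Above a log2 fold of 6 there were 4 of the 35 member peaks (11.4%), 3 on Ppp3ca and 1 on Ppp6c, against 13.8% of all other peaks. The next member peak stood at 5.62. A single peak was listed for 6 of the 15 members (40%) and for 756 of the 1611 others (46.9%).

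**Figure D4:**
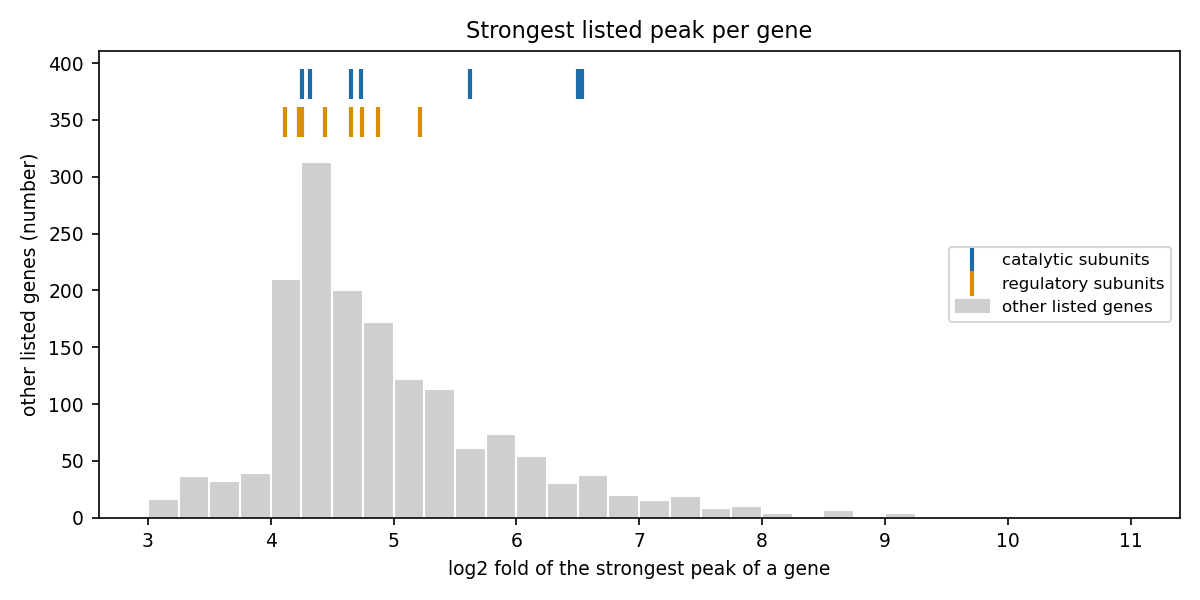
Histogram of the log2 fold of the strongest peak of each of the 1611 other listed genes (grey, y axis number of genes), with ticks for the 7 catalytic members (blue, upper row) and the 8 regulatory members (orange, lower row). Ppp3ca and Ppp6c stand near 6.5, and most other members lie between 4.1 and 5.3 in the bulk of the list.

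Placement along the mRNA was near that of the list in the 3' UTR. The authors' classes put 21 of the 35 member peaks in the 3' UTR (60.0%, exact 95% interval 42.1 to 76.1), and the share was 57.6% of the 4137 other peaks. Exons held 10 member peaks (28.6%, against 36.8% of other peaks) and 5' UTRs held 4 (11.4%, exact 95% interval 3.2 to 26.7, against 5.63%). All 7 listed catalytic genes had a peak in the 3' UTR, and so did 4 of the 8 regulatory genes. Of the 1611 other listed genes 70.5% had one. Of the 22 catalytic peaks 16 were in the 3' UTR and 6 in exons, with none in a 5' UTR. The 13 regulatory peaks divided into 5 of the 3' UTR class, 4 exon peaks and 4 of the 5' UTR class. Peaks of 1 gene share their mRNA, so these counts rest on few genes, and no class share was tested. Member peaks had a median width of 88 nt, and other peaks 79 nt.

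The listed folds can also be read for the reads behind a peak, under an assumed scale. Most values of the log2 fold differ by steps that a mean of 2 log2 ratios of whole read numbers gives. The scale used was the smallest that makes over 80% of all peaks fit, with 1 input read (or a pseudocount of 1) in each library, and a larger scale would give more reads. For 32 of the 35 member peaks (91.4%) the value fits such a step to within 0.001 of a whole product of the 2 immunoprecipitate read numbers, and it does for 82.5% of other peaks, a share that follows from how the scale was chosen. Read this way, the weakest such peaks, 1 each on Ppp1cb, Ppp3ca and Ppp2r5c with the same log2 fold of 4.11 and the same -log10 p of 3.27, correspond to a geometric mean of 9.95 reads per immunoprecipitate, and the strongest Ppp3ca peak to 53.4. The 3 peaks off the steps fit more input: the exon peak of Ppp1r15a, 1 peak of Ppp1r10 and the 3' UTR peak of Ppp4r3a. A peak on the steps can have more input too, where the division leaves a whole number, so the step alone does not fix the input. The peaks of Ppp1r15a at 45175419 and of Ppp6r3 at 3506152 share a log2 fold of 4.23, but their -log10 p values are 4.95 and 3.27. The Ppp1r15a exon peak and the Ppp1r16b peak fit the same 16.9 immunoprecipitate reads, but with a geometric mean of 2 input reads the Ppp1r15a peak has a log2 fold of 3.88 and with 1 the Ppp1r16b peak has 4.88. The read numbers are inferred from the deposited folds and this scale, not counted, and they are the lowest that the 80% demand allows.

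Other genes of these pathways were listed too. Of 67 genes in 4 lists 10 had a peak (14.9%, exact 95% interval 7.4 to 25.7, against 7.33% of all protein-coding genes), and in all 10 the strongest peak lay in the 3' UTR. That held for 62.3% of the listed genes outside the phosphatase family. The 4 lists were written with earlier results of these data known, so the interval only describes the count, and the difference from 7.33% was not tested. The part of expression level in this share was not tested either. With a peak above the median log2 fold asked for, the share was 5.97%, against 3.95% of all protein-coding genes. Among 19 PP2A regulators and partners, Anp32e, a histone chaperone of the acidic family that includes PP2A inhibitors, reached a log2 fold of 5.55. Set, a PP2A inhibitor, reached 5.36, Anp32b 4.43 and the striatin gene Strn, a PP2A regulatory subunit, 4.05. Among 14 calcineurin partners Ppia, which encodes the cyclosporin-binding cyclophilin A, had 5 peaks up to 5.80. The calmodulin genes Calm3 and Calm2 reached 4.70 and 4.53, and Fkbp1a, the gene of the protein through which tacrolimus inhibits calcineurin, 3.62. The calcineurin targets Nfatc1 to Nfatc4 and the inhibitor genes Rcan1 to Rcan3 were not listed. Among 18 PP1 partners not named Ppp, Wdr82, which works with PNUTS, reached 4.55 and Rif1, which brings PP1 to replication origins, 4.18. None of the 16 metal-dependent phosphatase genes, an unrelated family that also acts on serine and threonine, had a peak, and the exact 95% interval allows a share of up to 20.6%.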

How the data were processed

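NAT10 eCLIP was done in 32D cells with 2 immunoprecipitates and 2 inputs. The authors deposited 1 peak list, built on GRCm39 per the submitters' processing notes. No source used here names an aligner, a peak caller or cut-offs. Values in the authors' fold column were taken as log2, because 77.3% of its values have a partner exactly 0.5 away and none a partner 0.4 away. Those in the deposited p column reach 400 and were taken as -log10 p, with no statement on adjustment in the sources. Depth per library was not used here. Of 4206 rows 34 repeat a peak under another gene and 5 have no symbol. Symbols were matched to the RefSeq table of GRCm38.p6 (1609 of 1626), used for names and spans only. Touching peaks were joined into regions. Members, lists and groupings were chosen with earlier results of these data known, so no test was made over them. All members with a peak are named with their strongest peak. The code (Python 3.11.15, pandas 2.3.3, scipy 1.17.1) was checked on simulated data. Alternatives used stronger peaks, joined regions, 1 peak per gene, other backgrounds and other names. Peak sequences were not read, since no genome of that build was used here.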

Additional observations from a re-analysis of the deposited data

How the results depend on the processing

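No paired analysis was possible because the list holds no value per library, and for the same reason no replicate could be left out. With peaks above the median log2 fold alone, 9 members remained listed (11.7%, against 3.95% of all protein-coding genes). Among them were 4 of 63 regulatory genes (6.35%) in place of 8. Of the 67 other pathway genes 4 remained (5.97%) in place of 10, which is near the 3.95%. With 2 or more separate regions asked per gene, 8 members were listed (10.4%, against 3.41%). These losses follow from the stricter demand. The other 11 settings kept counts within 1.5 times their value, and shares and medians within the 95% intervals of the main setting. Some of these could not have come out otherwise. The listed count is the same by construction with the other background, with Ppp1ccb as catalytic and with the scaffold genes as regulatory. All strength settings, the p column among them, were held against the interval from the main log2 folds. Without receptor and predicted genes the background share is 8.56%. Older symbols add Fam118b, for 16 of 87 genes, and 5 of 11 catalytic genes had a peak above the median. Counting Ppp1ccb as catalytic gives 7 of 12, and counting the scaffold genes as regulatory gives 8 of 65, both chosen after the data were seen. The 3' UTR share ran from 58.1 to 71.4%. The members' median lay above 36.1 to 48.2% of other genes, the lowest with the median peak of each gene. The list gives no error per peak and no read count, so small differences between peaks have no error to be set against.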
